A study of Mus musculus with 4 samples.

Results

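Coro2a, Padi2, Gpnmb, Rab6b and Styk1 are 5 of the 32285 genes listed in each count matrix of thymic invariant natural killer T (iNKT) cells from 2 inbred mouse strains. They were picked, by symbol, because their transcripts were nearly absent from BALB/c cells and present in B6 cells. The choice rests on measured strain levels and has no numerical threshold, so the strain levels of these 5 genes are given as a description without a test. The comparisons that are tested lie inside B6, between subsets of iNKT cells, and among genes other than these 5. Those between subsets are not wholly free of the choice, since the shares of the subsets differ between the strains.

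Thymic cells that stained for CD3 and bound PBS57-loaded CD1d, a lipid complex seen by the iNKT cell receptor, were sorted and sequenced with a droplet-based 5' single-cell kit. There were 4 libraries, 2 labelled with the genotype BALB/c and 2 with the genotype B6; no treatment, engineered allele, age or sex was used to group them. Separate mice, pools or repeat preparations are not told apart by the labels, so the spread between libraries may be technical. After filtering, BALB/c 1 kept 1864 cells, BALB/c 2 kept 1913, B6 1 kept 2328 and B6 2 kept 8790, with median depths of 6923 to 11004 UMIs (unique molecular identifiers, which mark single captured RNA molecules) per cell. Across libraries, 107 cell barcodes were shared. The matrix of B6 2 carries another Cell Ranger version in its header than the other 3 matrices.

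iNKT cells recognise lipids on CD1d and mature in the thymus into subsets that resemble helper T cell lineages. iNKT1 cells depend on the transcription factor T-bet (Tbx21), make interferon gamma and carry NK cell receptors; iNKT2 cells make IL-4; iNKT17 cells make IL-17. B6 thymus is known for a high share of iNKT1 cells and BALB/c thymus for a high share of iNKT2 cells. The 5 genes encode unrelated kinds of protein. Padi2 is a calcium-dependent enzyme that converts arginine in proteins to citrulline. Styk1 is a membrane-spanning protein with a kinase-like domain, linked to PI3K and Akt signalling. Coro2a is a WD-repeat coronin, a family that binds actin, and is also a subunit of the NCoR corepressor complex. Rab6b is a small GTPase of traffic at the Golgi, best known from neurons. Gpnmb is a transmembrane glycoprotein best known from macrophages, osteoclasts and melanocytes, where it is induced by lysosomal stress.

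In GENCODE vM21 on GRCm38, Coro2a lies on the minus strand of chromosome 4 from 46536937 to 46602202, and Padi2 on the plus strand of chromosome 4 from 140906344 to 140952586. Gpnmb lies on the plus strand of chromosome 6 from 49036546 to 49070929. Styk1 is on the minus strand of chromosome 6 from 131299142 to 131353597, beside the Ly49 (Klra) receptor genes. Rab6b is on the plus strand of chromosome 9 from 103111787 to 103185276. All 5 are protein coding. Coro2a is overlapped by Gm16731 and Padi2 by Gm13031, both on the opposite strand and both in the matrices. The sources used here do not state if counting used strand, so reads of these overlapping pairs may be shared.

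The RefSeq promoter table for GRCm38.p6 held 4 of the 5 genes. The sequences upstream of Padi2 and Gpnmb are shown because, as described below, these genes were highest in different iNKT subsets of B6. Each runs 5′ to 3′ on the plus strand over the 200 bases from 250 to 51 bases before the annotated start, with CpG dinucleotides in capitals.
Padi2, chr4:140906110-140906309: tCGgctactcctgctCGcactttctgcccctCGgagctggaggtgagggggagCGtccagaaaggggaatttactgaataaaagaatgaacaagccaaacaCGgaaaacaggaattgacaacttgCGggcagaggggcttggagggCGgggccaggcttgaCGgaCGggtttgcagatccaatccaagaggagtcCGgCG
Gpnmb, chr6:49036268-49036467: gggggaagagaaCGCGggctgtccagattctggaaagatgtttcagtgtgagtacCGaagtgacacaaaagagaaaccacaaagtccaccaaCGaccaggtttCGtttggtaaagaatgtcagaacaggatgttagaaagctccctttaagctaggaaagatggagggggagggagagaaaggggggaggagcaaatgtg
Padi2 had 11 CpG dinucleotides in this window and Gpnmb had 5, against a median of 4 over the 32851 promoters of the table; 73.3% and 52.6% of promoters had fewer. The GC content was 57.0% for Padi2 and 49.0% for Gpnmb.

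Over all kept cells, each of the 5 genes was higher in both B6 libraries than in either BALB/c library. Levels are the share of a library's UMIs as CPM, which scales each library to the same total, and intervals on ratios cover counting error only. Coro2a had 8 and 7 UMIs in BALB/c 1 and 2 and 1506 and 12646 in B6 1 and 2, or 0.356, 0.315, 76.4 and 171 CPM. The B6 to BALB/c ratio of pooled counts was 450 for Coro2a (95% interval 273 to 804). Gpnmb had 5 and 3 UMIs in BALB/c and 387 and 1591 in B6, or 0.223, 0.135, 19.6 and 21.5 CPM, a ratio of 118 (59.7 to 273). These 2 genes came closest to absence in BALB/c.

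Rab6b had 15 and 11 UMIs in BALB/c and 519 and 1899 in B6, or 0.668, 0.495, 26.3 and 25.6 CPM, a ratio of 44.3 (30.2 to 68.0). Styk1 had 37 and 90 UMIs in BALB/c and 1361 and 8828 in B6, or 1.65, 4.05, 69.1 and 119 CPM, a ratio of 38.2 (32.1 to 45.9). Padi2 had the smallest ratio, 21.9 (19.0 to 25.3), with 72 and 123 UMIs in BALB/c and 1598 and 7353 in B6, or 3.21, 5.53, 81.1 and 99.2 CPM. The lower B6 library exceeded the higher BALB/c library 215-fold for Coro2a and 14.7-fold for Padi2. Across all genes, edgeR's quasi-likelihood test called 937 of 12878 genes (7.28%) between the strains, 3.64% higher and 3.63% lower in BALB/c.

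**Figure D1:**
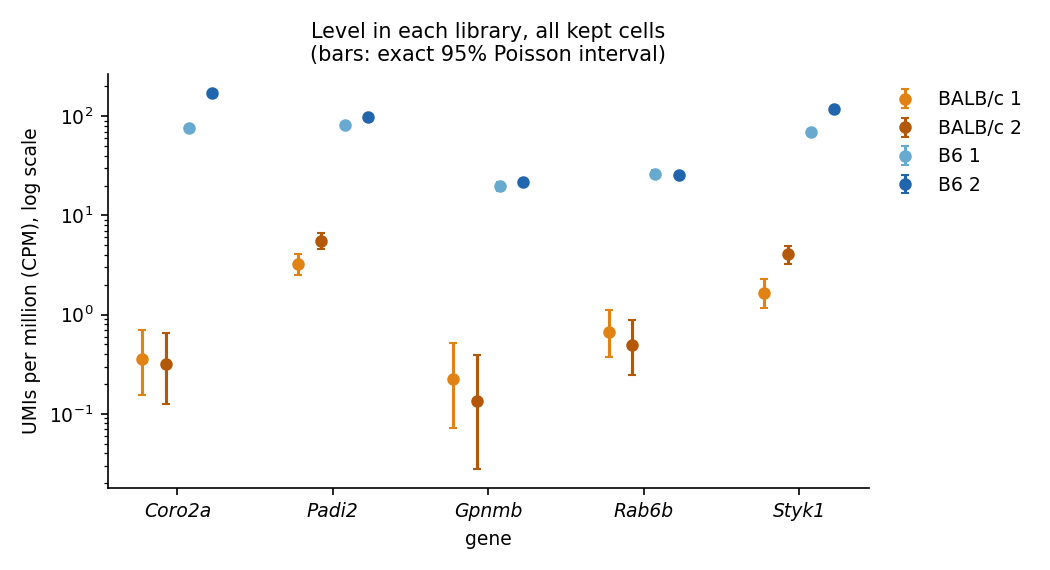
Level of each gene in each library over all kept cells, in CPM on a log axis; points are libraries and bars are exact 95% Poisson intervals. The BALB/c points of Coro2a, Gpnmb and Rab6b lie below 1 CPM, whereas those of Padi2 and Styk1 lie between 1.65 and 5.53 CPM, and all B6 points lie above 19 CPM.

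The near absence was not uniform once cells were divided into classes by marker genes. Most of the Padi2 and Styk1 transcripts of BALB/c were in iNKT1-like cells, with 135 of 195 Padi2 UMIs and 116 of 127 Styk1 UMIs. In iNKT1-like cells Padi2 reached 18.6 and 22.5 CPM in BALB/c 1 and 2 against 125 and 141 CPM in B6 1 and 2. The pooled ratio for Padi2 in this class was 6.47 (5.45 to 7.73), below the 21.9 over all cells. Styk1 in the same class was at 15.3 and 19.7 CPM in BALB/c against 109 and 184 CPM in B6, a ratio of 9.21 (7.67 to 11.2). iNKT1-like cells made up 16.6% and 32.0% of kept BALB/c cells and 57.9% and 57.3% of kept B6 cells, so the all-cell ratios of these 2 genes hold a difference in class shares as well as a difference within the class.

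Transcripts of the other genes stayed scarce in BALB/c iNKT1-like cells. Coro2a had 1 and 3 UMIs there, in 309 and 612 cells, against 1170 and 9676 in B6, a ratio of 373 (146 to 1370). Rab6b had 2 and 1 UMIs against 349 and 1185, a ratio of 70.3 (24 to 341). Gpnmb had 0 UMIs in both BALB/c libraries against 158 and 602 in B6, which is at least 34.8-fold higher in B6 with a floor of 3 counts over the group. A count of 0 cells allows a share with a Gpnmb UMI of up to 0.971% of the iNKT1-like cells of BALB/c 1 and 0.490% of those of BALB/c 2. This limits cells with a UMI at this depth, not cells that express the gene, since a UMI was found in only 9.64% and 9.43% of iNKT1-like cells of B6 1 and 2. Coro2a, Gpnmb and Rab6b had 9 UMIs or fewer per BALB/c library in each of the 7 classes, unlike Padi2 and Styk1 in iNKT1-like cells. A raw count says little in small or shallow classes. B6 itself had 5 Coro2a and 1 Gpnmb UMIs in double-positive thymocyte-like cells, and 6 Gpnmb UMIs in iNKT0-like cells, so no strain difference can be read there. For Rab6b, 1 UMI in each BALB/c library of the double-positive thymocyte-like class came to 3.19 and 2.12 CPM.

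In iNKT2-like cells Padi2 was at 1.41 and 1.122 CPM in BALB/c and 36.0 and 46.1 CPM in B6, a ratio of 34.9 (24.6 to 51.2). Gpnmb in iNKT2-like cells had 3 UMIs in each BALB/c library against 153 and 729 in B6. Styk1 had 0 and 1 UMIs in BALB/c iNKT2-like cells and 3.31 and 4.16 CPM in B6. The class was compared across strains although different clusters fill it. BALB/c iNKT1-like cells came mostly from cluster 12, led by Gm4208, Ifitm2 and Ccl5, with 267 and 510 cells. B6 iNKT1-like cells came from clusters 7, 9, 13 and 14. BALB/c iNKT2-like cells came mostly from cluster 2, led by Sox13 and Rln3, and those of B6 mostly from cluster 3, led by A330093E20Rik and 2600014E21Rik. Markers of other cell types also differed in level between the strains within iNKT1-like cells: the summed NK cell list of 8 markers, 1 at 0 in BALB/c and 0 in B6, stood at 440 to 527 CPM in BALB/c and 582 to 616 CPM in B6. The B cell list of 8 markers, 5 at 0 in BALB/c and 2 to 3 in B6, stood at 85.1 to 86.7 CPM and 173 to 180 CPM. Their part in the strain differences was not tested.

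**Figure D2:**
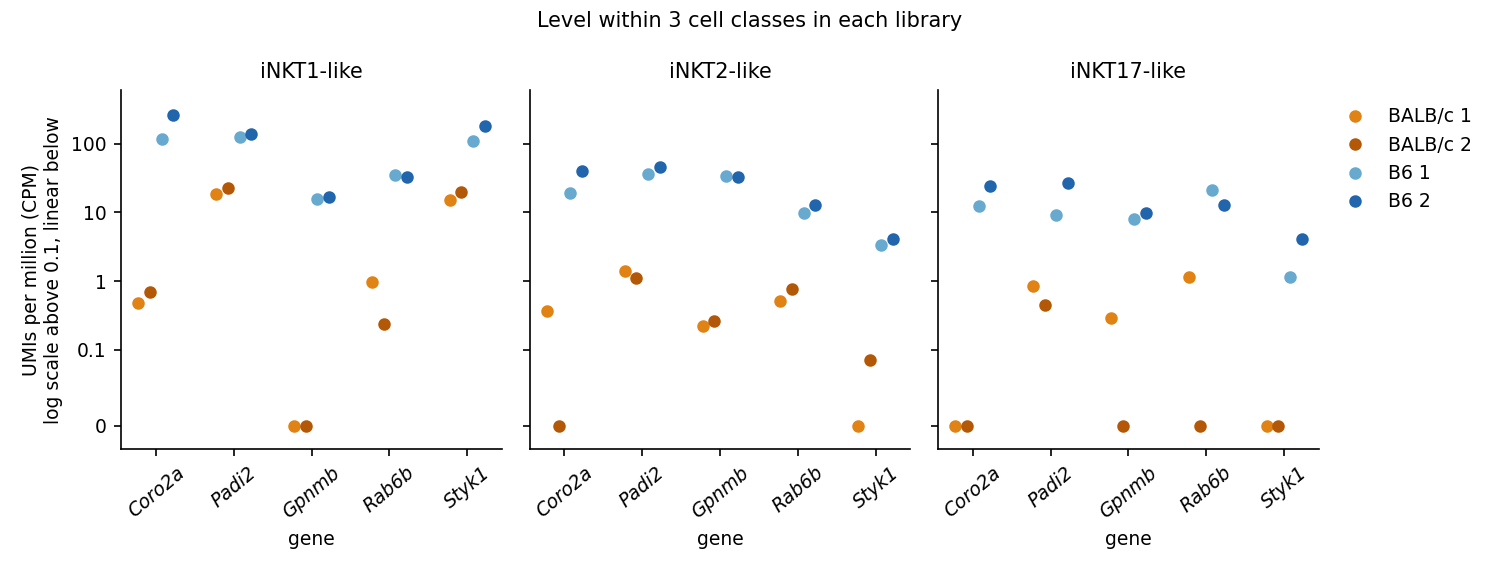
Level (CPM) of each gene by library in the iNKT1-like, the iNKT2-like and the iNKT17-like class, on a scale that is logarithmic above 0.1 and linear below. In iNKT1-like cells the BALB/c points of Padi2 and Styk1 lie between 15.3 and 22.5 CPM, while those of Gpnmb lie at 0.

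Inside B6, the question was which iNKT subset holds each gene. The class sums of B6 1 and B6 2 were compared with edgeR with the library as a block; the 5 genes had been left out of the genes used for clustering. Levels in this comparison are scaled by TMM factors (TMM-scaled CPM), and means carry the SD over the 2 libraries. The comparison of iNKT1-like with iNKT2-like cells called 53.9% of 10925 genes, with 27.7% higher and 26.2% lower in iNKT1-like cells. Of the 5 genes, 4 were called higher in iNKT1-like cells and Gpnmb was called lower, so a call by itself is common here and the sizes matter more. iNKT1-like cells were 57.9% and 57.3% of kept B6 cells but 16.6% and 32.0% of kept BALB/c cells. A choice by all-cell strain levels thus favours genes high in iNKT1-like cells, and its part in these calls was not tested. The class names rest on markers: Tbx21 was at 155 and 193 CPM in iNKT1-like cells of B6 1 and 2 and at 47.5 and 51.1 CPM in iNKT2-like cells. Il4 was at 51.6 and 66.0 CPM in iNKT1-like and 162 and 237 CPM in iNKT2-like cells.

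Styk1 was the most restricted of the 5 genes. Its TMM-scaled level in iNKT1-like cells was 129 and 201 CPM in B6 1 and 2, and 3.77 and 4.35 CPM in iNKT2-like cells. The log2 difference was 5.45 ± 0.13 (SE; adjusted p = 1.253e-19, edgeR), a 43.8-fold difference that put Styk1 at rank 17 by p among all genes tested. The difference was 4.59 with cells classed by their highest marker score, 4.81 with doublet-marked barcodes kept and 6.34 without the Sox13 and Rln3 cluster. In iNKT17-like cells Styk1 had 1 and 9 UMIs, and the log2 difference of iNKT1-like from iNKT17-like cells was 5.74 ± 0.27 (adjusted p = 5.248e-14, edgeR), in a comparison that called 32.1% of genes, 16.2% higher and 15.8% lower in iNKT1-like cells. The latter difference was 3.89 with the marker score, 3.91 with doublet-marked barcodes kept and 6.54 without B6 2. Interferon-responding cells, a cluster led by Ifit3 that also carried Tbx21 at 128 and 169 CPM, held Styk1 at 85.7 and 86.2 TMM-scaled CPM. In B6 1 no Styk1 UMI was found in iNKT0-like cells, the immature stage, or in cells resembling double-positive thymocytes, and B6 2 had 12 and 6 UMIs there.

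Coro2a followed the same broad order with a less steep fall. Its TMM-scaled level was 139 and 291 CPM in iNKT1-like cells and 22.1 and 41.9 CPM in iNKT2-like cells of B6 1 and 2. The log2 difference was 2.76 ± 0.08 (adjusted p = 3.324e-18, edgeR), or 6.76-fold; it was 2.15 with the marker score and 3.503 without the Sox13 and Rln3 cluster. Interferon-responding cells were next to iNKT1-like cells, at 106 and 219 CPM, and the ranges of these 2 classes overlap across libraries, although iNKT1-like cells were higher within each library. iNKT2-like, proliferating, iNKT0-like and iNKT17-like cells had means of 32.0, 21.6, 20.5 and 19.3 TMM-scaled CPM, with overlapping ranges. Double-positive thymocyte-like cells were lowest, with 2 and 3 UMIs.

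Padi2 was high in iNKT1-like and interferon-responding cells alike. It stood at 148 and 154 TMM-scaled CPM in iNKT1-like cells and at 116 and 175 CPM in interferon-responding cells, so neither class was above the other in both libraries. iNKT2-like cells had 41.0 and 48.3 CPM, below both of those classes in each library. The log2 difference of iNKT1-like from iNKT2-like cells was 1.74 ± 0.09 for Padi2 (adjusted p = 1.22e-13, edgeR), or 3.34-fold, and that from iNKT17-like cells was 2.77 ± 0.18 (adjusted p = 2.268e-11). Padi2 in iNKT17-like cells was at 10.0 and 27.6 TMM-scaled CPM, from 8 and 60 UMIs, and the difference was 3.94 without B6 2 and 2.57 without B6 1. The 4 remaining classes had Padi2 means of 6.37 to 18.8 TMM-scaled CPM.

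Rab6b had a different distribution, with its highest mean outside the mature subsets. Double-positive thymocyte-like cells, which carried Rag1 at 1974 and 1729 CPM, had 26 and 45 Rab6b UMIs, or 54.1 and 46.7 TMM-scaled CPM (95% Poisson intervals 35.3 to 79.3 and 34.0 to 62.5). iNKT0-like cells were at 37.3 and 30.7 CPM, interferon-responding cells at 42.9 and 34.9 CPM and iNKT1-like cells at 41.4 and 35.7 CPM, and these 3 classes overlap. Each lay below the double-positive thymocyte-like cells of the same library, all but the iNKT0-like cells of B6 2 within the counting intervals of the latter, and that difference was not tested. iNKT2-like cells were lower, at 11.3 and 13.6 CPM, and proliferating cells lowest, at 2.13 and 6.20 CPM. The log2 difference of iNKT1-like from iNKT2-like cells was 1.51 ± 0.14 for Rab6b (adjusted p = 6.353e-09, edgeR), or 2.86-fold, and that from iNKT17-like cells was 1.23 ± 0.24 (adjusted p = 0.0002761). In counts, iNKT1-like cells of B6 1 had 1170 Coro2a and 349 Rab6b UMIs, whereas double-positive thymocyte-like cells had 2 and 26, so the 2 genes were not in a fixed ratio across classes. B6 2 had 9676 and 1185 in the former and 3 and 45 in the latter. The double-positive thymocyte-like class joins 2 clusters. Its cluster 11 is shallow, with 36 and 47 cells at median depths of 1318.5 and 1929 UMIs. It gave 10 and 8 of the Rab6b UMIs, at 213 and 75.3 plain CPM. In cluster 15 Rab6b was at 51.2 and 59.6 plain CPM, against 34.97 and 32.65 plain CPM in iNKT1-like cells. The part of RNA quality in the Rab6b level of this class was not tested.

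Gpnmb, whose upstream sequence is shown above beside that of Padi2, was the only one of the 5 called higher in iNKT2-like than in iNKT1-like cells. Its TMM-scaled level was 38.5 and 34.1 CPM in iNKT2-like cells and 18.7 and 18.1 CPM in iNKT1-like cells of B6 1 and 2, with no overlap. The log2 difference of iNKT1-like from iNKT2-like cells was -0.95 ± 0.12 (adjusted p = 4.553e-07, edgeR), or 1.94-fold. iNKT17-like cells were lower, at 8.79 and 10.1 CPM, and 1.86 ± 0.24 below iNKT2-like cells on the log2 scale (adjusted p = 3.122e-06) in a comparison that called 22.5% of genes, 12.0% higher and 10.4% lower in iNKT2-like cells. The log2 difference of iNKT1-like from iNKT17-like cells was 0.91 ± 0.26 for Gpnmb (adjusted p = 0.01005); it missed the threshold with DESeq2 (0.06337), without the library block (0.1004) and with B6 clustered alone (0.05278). iNKT0-like and double-positive thymocyte-like cells together had 7 Gpnmb UMIs, all in B6 2.

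Because Gpnmb is best known from macrophages, markers of macrophages and monocytes were summed in the same cells. Of the 12 markers, 7 to 8 were at 0 in B6 iNKT2-like cells and 5 to 7 in B6 iNKT1-like cells. C1qa, C1qb, C1qc, Mertk, Fcgr1 and Trem2 had no UMI in iNKT2-like cells of either B6 library, while Cd68, Ctss and Apoe had UMIs in both. The summed level was 104 to 106 CPM in B6 iNKT2-like, 64.1 to 66.2 CPM in B6 iNKT1-like and 81.2 to 81.9 CPM in BALB/c iNKT2-like cells. In B6 iNKT17-like cells it was 171 to 207 CPM. A list of 8 dendritic cell markers, of which 3 to 6 were at 0 in B6 iNKT2-like cells and 3 in B6 iNKT1-like cells, summed to 13.9 to 21.3 CPM in the former and 3.09 to 3.21 CPM in the latter. In BALB/c iNKT2-like cells, with 2 to 3 markers at 0, it summed to 5.52 to 6.14 CPM. Itgax, Clec9a and Siglech had no UMI in iNKT2-like cells of either B6 library, while Flt3 and Cd74 had UMIs in both. The part of such cells in the Gpnmb levels was not tested.

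The comparison of iNKT2-like with iNKT17-like cells was the least firm. Coro2a differed by 0.74 ± 0.20 on the log2 scale (adjusted p = 0.01025, edgeR), but the difference was -0.042 without the Sox13 and Rln3 cluster and -0.054 with doublet-marked barcodes kept. Keeping those barcodes also meant clustering the cells anew. B6 iNKT2-like cells then numbered 225 and 1337 in place of 272 and 1429, and a gamma-delta T class of 53 and 253 cells appeared. Padi2 differed by 1.02 ± 0.23 (adjusted p = 0.001472) and missed the threshold without the library block (0.1541) and with doublet-marked barcodes kept (0.07662). Without B6 2 the Padi2 difference was 2.06, and without B6 1 it was 0.85. Rab6b (-0.28 ± 0.28, adjusted p = 0.5447) and Styk1 (0.29 ± 0.60, adjusted p = 0.8033) were not called. The iNKT17-like sums are small, from 68 and 177 cells.

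**Figure D3:**
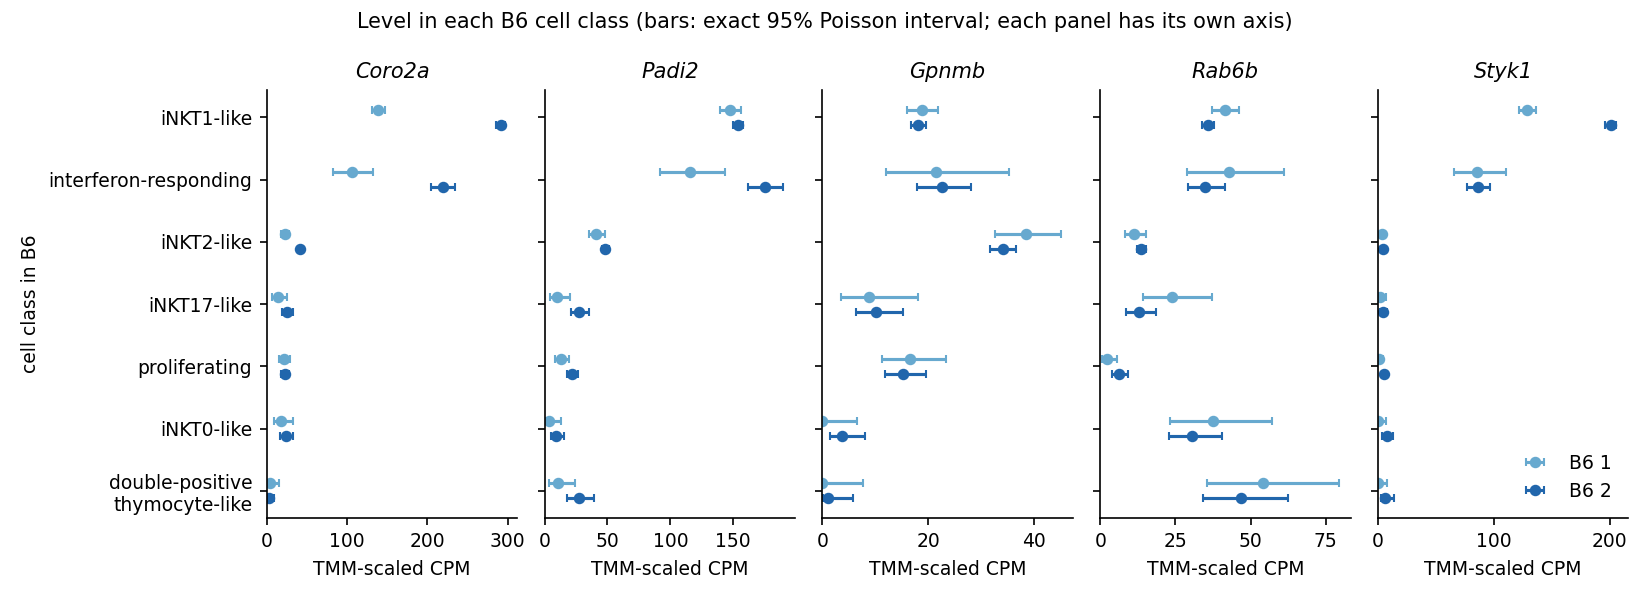
TMM-scaled level of each gene in 7 cell classes of B6 1 and B6 2; points are libraries, bars are exact 95% Poisson intervals, and each panel has its own linear axis from 0. Styk1 is near 0 outside iNKT1-like and interferon-responding cells, Gpnmb peaks in iNKT2-like cells at 34.1 and 38.5 CPM, and Rab6b peaks in double-positive thymocyte-like cells at 46.7 and 54.1 CPM. Those Rab6b points rest on 45 and 26 UMIs.

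Within the iNKT1-like class, the 5 genes did not share a gradient across the 4 B6 clusters that make it up. Styk1 was highest in cluster 14, led by Gzma and Kcnj8, at 155 and 262 CPM in B6 1 and 2 (plain CPM here and below), and lowest in cluster 9, led by Krt83 and Rgs1, at 66.9 and 111 CPM. Padi2 ran the other way between those clusters, at 115 and 137 CPM in cluster 14 and 163 and 191 CPM in cluster 9. Coro2a was highest in cluster 13, led by Spin2c, Klrb1c and Zfp683, at 138 and 317 CPM. Gpnmb was lowest in cluster 14, at 9.89 and 10.2 CPM, against 15.8 CPM or more in the other 3 clusters. Rab6b was between 29.0 and 37.2 CPM in each cluster and library. The extremes named for Styk1, Padi2, Coro2a and Gpnmb were the same in both libraries; they were picked after their values were seen and were not tested.

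**Figure D4:**
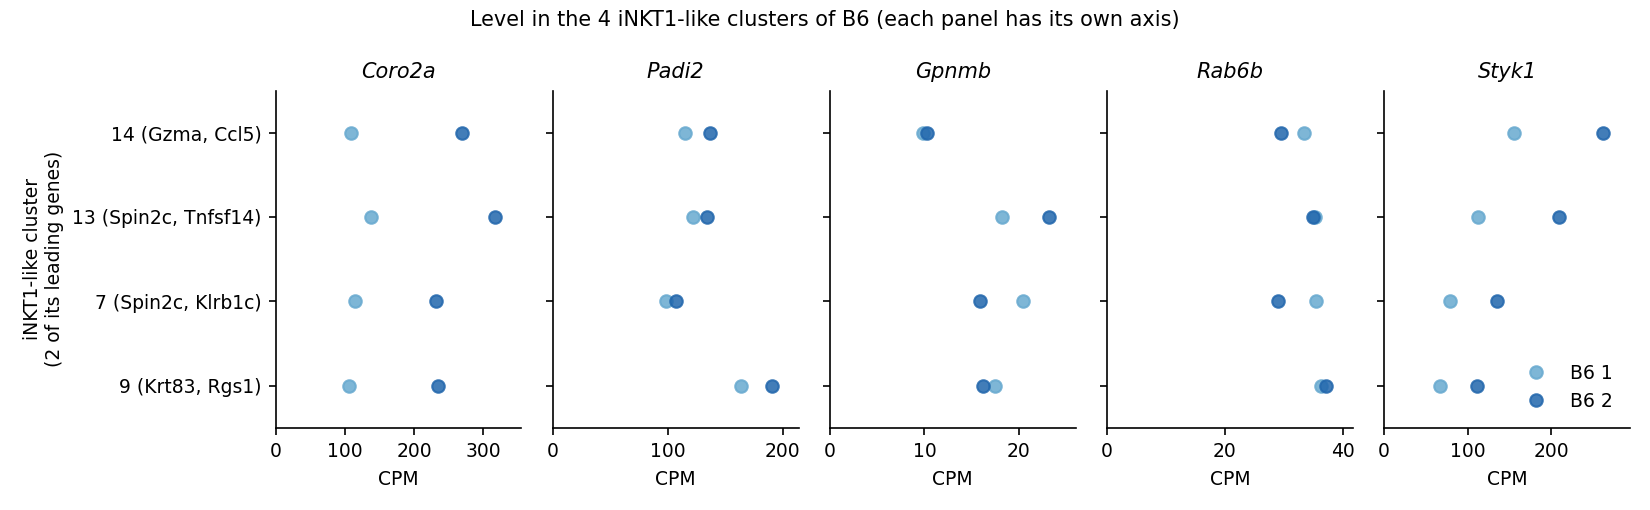
Level of each gene in the 4 iNKT1-like clusters of B6, in CPM with a separate axis from 0 in each panel; points are the 2 libraries. Styk1 rises from cluster 9 to cluster 14 in both libraries, Padi2 is highest in cluster 9, and Gpnmb is lowest in cluster 14.

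The iNKT2-like class was also mixed. In its cluster 2, led by Sox13 and Rln3, Coro2a was at 34.9 and 101 CPM, against 13.2 and 22.1 CPM in cluster 3. Styk1 was at 9.36 and 10.2 CPM in cluster 2 and 0.697 and 2.03 CPM in cluster 3, and Tbx21 was at 97.9 and 112 CPM against 25.1 and 30.5 CPM. Gpnmb was similar in both, at 28.9 and 25.6 CPM in cluster 2 and 34.2 and 33.2 CPM in cluster 3. Part of the Styk1 and Coro2a signal of iNKT2-like cells thus sat in a cluster that also carried more Tbx21.

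A cluster of cells with few UMIs stayed unnamed and held a sizeable part of the Styk1 signal. It had 184 and 788 B6 cells with median depths of 1640 and 2446 UMIs and mitochondrial shares of 7.20% and 4.86%. Styk1 was at 596 and 747 CPM there, above every named class, and Coro2a was at 332 and 450 CPM. Padi2 was at 206 and 154.5 CPM and Rab6b at 67.6 and 59.3 CPM. Gpnmb was at 67.6 and 33.1 CPM, from 22 and 72 UMIs, against 33.8 and 32.6 plain CPM in iNKT2-like cells. Compared with iNKT1-like cells, all 5 genes were higher in both libraries in the cells of this unnamed cluster. Malat1, a nuclear RNA, was at 22260 and 10270 CPM in these cells and between 1005 and 4522 CPM in the clusters of iNKT1-like and iNKT2-like cells. Tbx21 was at 197 and 213 CPM and Gapdh at 261 and 86.0 CPM. With these cells added to iNKT1-like cells, an alternative chosen after the data were seen, the Styk1 difference from iNKT2-like cells was 5.60 on the log2 scale. The part of RNA quality in the high levels of the 5 genes in this cluster was not tested.

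Both B6 libraries gave the same direction for every gene between iNKT1-like and iNKT2-like cells, but not the same level for every gene. In iNKT1-like cells the TMM-scaled ratio of B6 2 to B6 1 was 1.04 for Padi2 (0.979 to 1.11), 0.967 for Gpnmb (0.810 to 1.16) and 0.862 for Rab6b (0.764 to 0.974). For Coro2a it was 2.10 (1.97 to 2.23), above 97.2% of 10083 genes with enough counts, of which the middle 90% lay between 0.720 and 1.76. For Styk1 it was 1.56 (1.46 to 1.67), above 92.1% of genes. The Coro2a ratio was 1.89 (1.52 to 2.38) in iNKT2-like and 2.07 (1.63 to 2.67) in interferon-responding cells, whereas in proliferating cells it was 1.08 (0.735 to 1.61). Styk1 was level between the libraries in interferon-responding cells, at 1.01 (0.760 to 1.35). B6 2 is also the library with the other Cell Ranger version in its header, 7.1.0 against 6.0.0, and the most barcodes. Gapdh, a glycolysis enzyme that every cell uses, was at 1079 to 1406 CPM in the 4 iNKT1-like clusters of B6 1 and at 293 to 393 CPM in those of B6 2. The part of these in the Coro2a and Styk1 differences was not tested.

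As shares of cells with at least 1 UMI, Coro2a was found in 50.4% and 76.2% of B6 iNKT1-like cells and Styk1 in 43.2% and 49.2%. Padi2 was found in 53.9% and 58.0% of them, Rab6b in 22.0% and 19.98%, and Gpnmb in 9.64% and 9.43%. In iNKT2-like cells, which were deeper at medians of 14363 and 14166 UMIs against 7123 and 6849, Styk1 was found in 4.04% and 3.99% of cells and Gpnmb in 29.0% and 27.2%. With each cell thinned to 3000 UMIs, Gpnmb was found in 8.21% and 8.47% of iNKT2-like cells and 4.02% and 4.30% of iNKT1-like cells. Thinned shares of Styk1 were 26.1% and 32.9% in iNKT1-like and 1.49% and 1.41% in iNKT2-like cells. The thinning left out 4 and 12 iNKT2-like and 30 and 112 iNKT1-like cells.

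Free RNA in droplets can give UMIs in cells that do not express a gene. In double-positive thymocyte-like cells of B6 1 and 2, at median depths of 2324 and 2642 UMIs, Coro2a was found in 1.37% and 1.15% of cells, Styk1 in 0% and 2.30%, and Gpnmb in 0% and 0.383%. Padi2 was found there more often than these genes, in 3.425% and 9.58% of cells. Thinned to the same depth, Styk1 was found in 2 of 81 of those B6 2 cells (2.47%; 95% interval 0.3004% to 8.64%), an interval that includes its share in iNKT2-like cells of that library. Thinned Padi2 was found in 9 of the same 81 cells (11.1%, 95% interval 5.21% to 20.05%). That interval includes its thinned share of 12.84% in iNKT2-like cells of B6 2. Styk1 was not even among iNKT2-like cells, as its cluster levels above show. Rab6b, by contrast, was found in 16.4% and 15.7% of double-positive thymocyte-like cells of B6, and in 0.709% and 0.606% of those of BALB/c at similar depths of 2182 and 2802 UMIs.

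Among single B6 iNKT1-like cells at 3000 UMIs, the 2 pairs of Coro2a with the other genes highest in this class are given, as a description. Padi2 was found in 30.7% of B6 1 cells with a Coro2a UMI and 31.1% of those without, and in 33.2% and 33.5% in B6 2. Styk1 was found in 24.9% of B6 1 cells with Coro2a and 26.6% without, and in 35.2% and 30.4% in B6 2, which is the opposite order. No UMI of any of the 5 genes was seen in 31.3% of these cells in B6 1 and 19.7% in B6 2, and UMIs of all 5 were seen in 0 and 3 cells.

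Across the 14 sums of 7 classes in 2 B6 libraries, Styk1 and Padi2 had a Pearson correlation of 0.912 on log2(CPM + 1), Styk1 and Coro2a 0.854, and Coro2a and Padi2 0.793. Rab6b and Gpnmb had -0.456. The points share libraries and depth, and these values are descriptive. Of 9229 genes with a mean of 5 CPM or more, those most like Coro2a were Bin2 (0.966), Chsy1 and Lasp1 (both 0.964). Those most like Padi2 were Trim14 (0.955), Neurl3 (0.953) and Lrrfip1 (0.946). Styk1 was most like Wipf1 (0.968), Hip1 (0.961) and Dennd4a (0.958). Gpnmb was most like Abcb1b (0.973), Tbc1d4 (0.955) and Ifi27l2a (0.949), and Rab6b was most like Rasal3 (0.953), Txk (0.949) and Prdx5 (0.930).

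Relatives and partners of the 5 genes were counted from lists. Strain values here are BALB/c relative to B6 over all kept cells, where 7.28% of genes were called and the median over all genes was -0.02 on the log2 scale. None of the 5 tested coronins other than Coro2a was called. The member of lowest p was Coro2b, at 5.28 and 6.78 plain CPM in B6 and 18.1 and 11.7 CPM in BALB/c (log2 difference 1.34 ± 0.26, adjusted p = 0.05888, edgeR). None of the 6 tested NCoR complex partners of Coro2a was called, and Ncor1 differed by -0.06 ± 0.09. Of the 14 tested Rab6 proteins, effectors and regulators, none was called, and Rab6a, the widely expressed relative of Rab6b, was at 59.3 and 55.5 CPM in B6 and 59.4 and 62.5 CPM in BALB/c.

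Of the 3 tested peptidylarginine deiminases other than Padi2, Padi1 was called lower in BALB/c (-3.19 ± 0.43, adjusted p = 0.03235, edgeR), at 1.47 and 2.33 plain CPM in B6 and 0.223 and 0.180 CPM in BALB/c. Padi3 (-2.25 ± 0.51, adjusted p = 0.07697) and Padi4 (-0.97 ± 0.31, adjusted p = 0.1402) were not called. The list's median was -2.25. In B6 iNKT1-like cells Padi4 was at 0.474 and 0.301 TMM-scaled CPM, and at 3.52 and 4.54 TMM-scaled CPM in iNKT2-like cells, opposite to Padi2.

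Of the 15 NK receptors and adaptors, a list that includes the gene family beside Styk1, 7 were called lower in BALB/c and none higher, with a median of -1.68. They include Klrb1c, which encodes NK1.1 (-7.01 ± 0.18, adjusted p = 0.003701, edgeR), the Ly49 gene Klra9, Cd160 (-3.39 ± 0.15, adjusted p = 0.007804) and Klri2. The share of iNKT1-like cells, given above, differed between the strains in the same direction, and its part in these all-cell values was not tested. Ly49 genes are near-identical copies whose number differs between strains, so their counts are uncertain. All 14 tested in B6 were called higher in iNKT1-like than in iNKT2-like cells, with a median of 3.85 against 0.03 over all genes; 6 of them are among the markers that named iNKT1-like cells, and cells were clustered on such genes. Of the 12 genes listed for the Akt pathway, 1 was called between strains. This was Pdk1, lower in BALB/c (-1.37 ± 0.14, adjusted p = 0.02271, edgeR), at 22.9 and 20.9 CPM in B6 and 8.77 and 7.73 CPM in BALB/c. In mouse this symbol names a pyruvate dehydrogenase kinase and not the kinase that activates Akt, so the call is not one of an Akt pathway gene.

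Of the 18 tested lysosomal and MiT/TFE genes, listed for Gpnmb, 2 were called higher and 2 lower in BALB/c, with a median of 0.19. Ctsl, a lysosomal protease, was higher (3.07 ± 0.45, adjusted p = 0.0375, edgeR) and so was Lamp2 (0.59 ± 0.09, adjusted p = 0.0371). The protease Ctsd (-1.02 ± 0.10, adjusted p = 0.0209) and the cholesterol transporter Npc1 (-0.999 ± 0.153, adjusted p = 0.04012) were lower. In B6 iNKT1-like against iNKT2-like cells, 5 of 17 of these genes were called higher and 4 lower, against 27.7% and 26.2% of all genes. In the same comparison, with 53.9% of all genes called, 4 of 6 NCoR partners were called higher and 2 lower, and 7 of 14 Rab6 genes higher and 3 lower. Of the 12 genes listed for the Akt pathway, Pdk1 included, 7 were called higher and 1 lower, and 3 of 5 coronins were called lower. Coro2b was the coronin of lowest p there (-3.37 ± 0.35, adjusted p = 2.433e-08), opposite to Coro2a.

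The 5 nearest protein-coding genes on each side of the 5 genes make 50 neighbours, of which 35 could be tested between strains. Of these, 3 were called higher and 6 lower in BALB/c, against 3.64% and 3.63% of all genes. These are values over all kept cells, and the share of iNKT1-like cells, given above, differed between the strains. One of the called neighbours, Trim14, was also the gene most like Padi2 across the B6 class sums. The part of class shares in the neighbour calls was not tested. Next to Coro2a, Trim14 was at 63.0 and 98.4 plain CPM in B6 and 29.1 and 24.2 CPM in BALB/c (-1.56 ± 0.23, adjusted p = 0.03798, edgeR). Trmo, further to the same side, was lower as well (-1.74 ± 0.20, adjusted p = 0.02869), and Anks6 on the other side was higher (2.23 ± 0.31, adjusted p = 0.0337). Beside Styk1, Magohb (-1.15 ± 0.15, adjusted p = 0.03014, edgeR) and Ybx3 (-0.71 ± 0.12, adjusted p = 0.04477) were lower. Their starts lie at -14.75 and 65.71 kb from that of Styk1, negative for lower coordinates. Klra10, much further off at -1030 kb, was at 12.7 and 13.4 CPM in B6 with 0 UMIs in BALB/c.

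Padi1, named above, is the gene next to Padi2. Near Gpnmb, Ccdc126 was higher in BALB/c (1.76 ± 0.11, adjusted p = 0.01274, edgeR), at 28.3 and 27.7 CPM against 7.77 and 9.10 CPM in B6. Near Rab6b, Trf, the transferrin gene, was higher (0.95 ± 0.11, adjusted p = 0.02837). The nearest tested neighbours of Gpnmb and Rab6b, Malsu1 and Srprb, were not called.  Without B6 1 the count of called neighbours was 19, and without BALB/c 1 or BALB/c 2 it was 0; the 13 called genes of the lists above became 36 and 0.

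**Figure D5:**
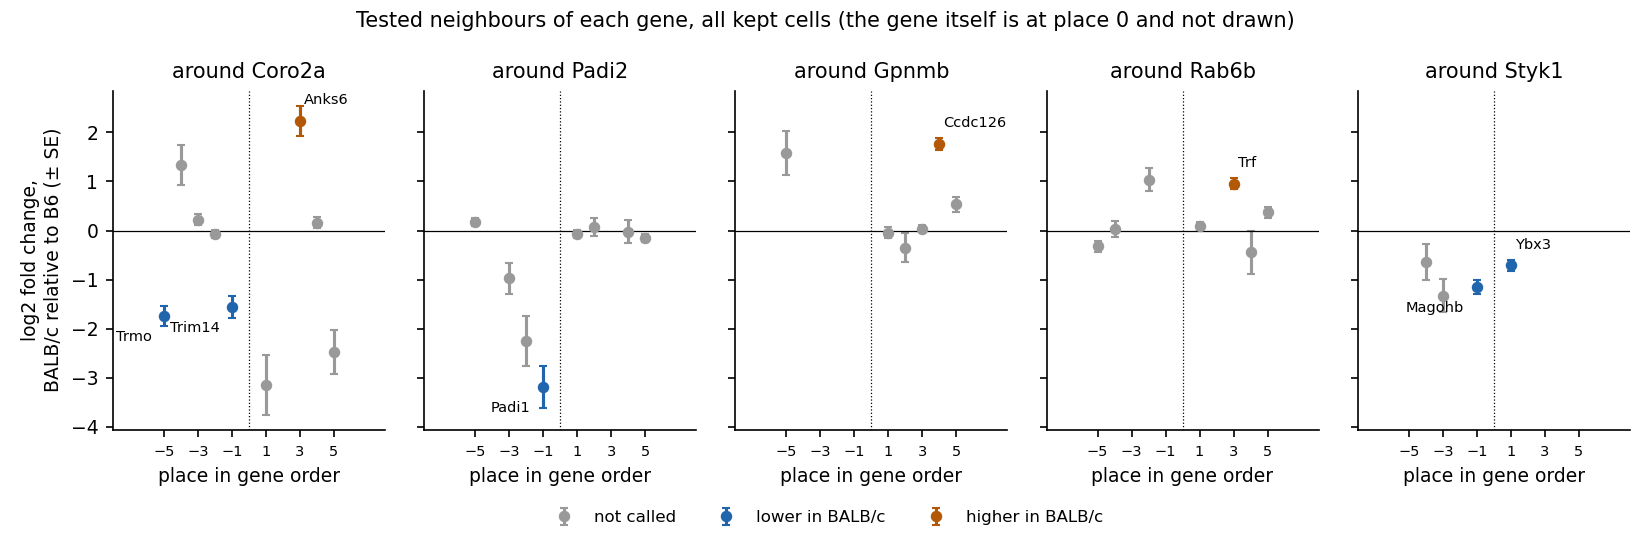
Log2 fold change of BALB/c relative to B6, with SE, for the tested neighbours of each gene by their place in gene order (negative places have lower coordinates); Klra10, with 0 UMIs in BALB/c, is not drawn. Called neighbours are coloured and named, and 6 of the 9 called, Klra10 included, are lower in BALB/c.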

How the data were processed

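Single-cell 5' RNA libraries of sorted thymic iNKT cells were analysed, 2 for each strain. The authors deposited 1 matrix of UMI counts for each library, genes by barcodes; these are whole numbers and not normalized. Per the submitters' processing notes, Cell Ranger 7.1.0 and mm10 were used; per the file headers, B6 2 was made with 7.1.0 and the other 3 matrices with 6.0.0. The sources used here do not state if intronic reads were included. mm10 represents a C57BL/6 strain. The matrices hold 20406245 to 82904358 UMIs.

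Kept barcodes had at least 500 genes, at least 1000 UMIs and at most 10% of UMIs from mitochondrial genes. Also removed were those of highest scrublet score at 0.8% per 1000 barcodes, a set rate and not a measured doublet share. Cells were clustered with scanpy 1.11.5 (2000 variable genes without the 5 genes, 30 principal components, 15 neighbours, Leiden resolution 1.0). Values were z-scored within each library, a choice made after the first clustering had split the B6 libraries. Clusters were named by mean log2 fold of at least 0.3 over a marker list, 40% of markers above 0.5 and 3 of these in 10% of the cells; the last condition was added after a cluster with few Lyz2 UMIs had been named. Rebuilt names may differ from the study's.

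Counts were summed per library, or per library and class, and tested with edgeR 4.0.16 (TMM, filterByExpr, quasi-likelihood F test, Benjamini-Hochberg over all genes tested, threshold 0.05). B6 fits used 14 sums of 7 classes with the library as a block, since sums of a library come from the same preparation. With 2 libraries per strain, p-values of the strain fit measure only the spread between these libraries. In the B6 fits the block removes the library shift that all classes share. Their p-values measure the spread that is left between the 2 libraries, pooled over the 7 classes. Neither kind of p-value covers libraries other than these. SE is the absolute log2 fold change over the square root of F. Count intervals are exact 95% Poisson and share intervals Clopper-Pearson, for counting error only; a count of 0 allows 3 counts of the total. The scripts were tested on simulated data. Genes were placed with GENCODE vM21; 32158 of 32285 (99.6%) matched by identifier.

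The 5 genes and all lists were chosen with earlier results of these data known. The naming rule took up to 4 genes of lowest p per list and fit, called neighbours, and the 3 genes most alike over B6 sums without predicted genes or TCR and immunoglobulin segments. Genes named outside it were chosen after their values were seen. DESeq2 1.42.0, filters, clusterings and left-out libraries were alternatives.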

Additional observations from a re-analysis of the deposited data

How the results depend on the processing

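The iNKT1-like against iNKT2-like difference kept its direction and its call for each of the 5 genes in all 50 alternative values with a test, and its direction in the 10 values that leave out a library, which have no test, in a range of 2.15 to 3.503 for Coro2a, 1.32 to 2.10 for Padi2, -1.12 to -0.86 for Gpnmb, 1.06 to 1.94 for Rab6b and 4.59 to 6.34 for Styk1 on the log2 scale. Against iNKT17-like cells, 42 of 45 values with a test kept the call and the 10 without a test kept the direction; the exceptions were Gpnmb with DESeq2 (0.90), without the library block (0.93) and with B6 clustered alone (0.75). For iNKT2-like against iNKT17-like cells, 19 of 27 tested values of the called genes kept the call and 8 lost it; over all 5 genes 7 of 55 values, 1 of them without a test, changed sign. Coro2a was 0.71 with DESeq2, 0.66 without the block, 0.56 (adjusted p = 0.1702, edgeR) with each cell in the class of its highest marker score and 0.58 (0.1248) at Leiden resolution 1.5. It was -0.054 with doublet-marked barcodes kept, a setting that also clustered the cells anew. Coro2a was -0.042 without the Sox13 and Rln3 cluster, an alternative chosen after seeing the data. Padi2 was 1.10 without the block and 0.57 with doublet-marked barcodes. Rab6b, not called, was 0.067 with the marker score and ranged from -1.005 without B6 2 to 0.127 without B6 1. Styk1, not called, was -0.70 with the marker score, -0.90 with doublet-marked barcodes and -0.60 without the Sox13 and Rln3 cluster. The cause of these shifts was not tested.

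Genes called between strains numbered 1747 with DESeq2 against 937, and 0 to 5203 with a library left out: 5203 without B6 1, 1784 without B6 2, and 0 without BALB/c 1 or BALB/c 2, where edgeR had 1400 and 1644 genes at an unadjusted p under 0.05. Called list genes numbered 13, against 20 with DESeq2, 5 with the block, 36 without B6 1 and 0 without either BALB/c library (range 0 to 36); called neighbours ranged from 0 to 19. Replicate numbers of the 2 strains share only a number, and with 2 pairs the replicate block of the strain fit left 264 genes and 3 neighbours called. Without the library block, the B6 fits called 1962 genes for iNKT1-like against iNKT2-like, 1507 for iNKT1-like against iNKT17-like and 925 for iNKT2-like against iNKT17-like cells, in place of 5889, 3504 and 2455. With the marker score the first and last were 3403 and 1431. Of 70 levels under alternatives that kept all libraries, 55 moved by less than the spread between libraries. Thinning lowered the shares of cells with a UMI, which depth limits.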

Other observations

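Cluster 8, which stayed unnamed, came almost wholly from B6 2, with 185 of its cells there against 4 in B6 1, and was led by Lyz2 and Oprm1. In its B6 2 cells Coro2a was at 160 CPM, Padi2 at 76.8 CPM, Styk1 at 89.4 CPM, Rab6b at 26.4 CPM and Gpnmb at 17.6 CPM.

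The most Styk1 UMIs in any single cell were 25 in B6 2, 8 in B6 1 and 4 in each BALB/c library. For Gpnmb the highest counts in a cell were 12 in B6 1 and 9 in B6 2, although its mean level was the lowest of the 5 genes over all B6 cells, and 1 and 2 in BALB/c.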
